A study of Homo sapiens with 3 samples.

Results

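FTO, ALKBH5 and the other human relatives of the bacterial repair enzyme AlkB were described in 3 RNA-seq libraries labelled HepG2, the name of an established liver cancer cell line. The members are the 9 genes FTO and ALKBH1 to ALKBH8, chosen by gene name among 39320 gene rows on the primary chromosomes, those whose reference name has no added suffix. Each of the 9 had 1 row. The libraries are titled as replicates of HepG2 and were grouped here as wild type, so the data hold 1 condition and no control. The labels do not say whether the replicates came from separate cultures. The p-values below therefore concern only whether the difference between a pair of genes keeps its sign across these libraries. The study was about splice variants of METTL3, the methyltransferase that writes N6-methyladenosine (m6A) on RNA, and the genes here include the enzymes that remove that mark.

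AlkB enzymes are dioxygenases that hold an iron ion and use oxygen and 2-oxoglutarate to oxidise a substrate, often a methyl group on a nucleobase, which then falls off. FTO and ALKBH5 are the known m6A demethylases, and FTO also acts on the m6Am next to the mRNA cap. ALKBH2 and ALKBH3 repair alkylated DNA, ALKBH1 acts on tRNA, ALKBH8 modifies the wobble uridine of tRNA, and ALKBH4 and ALKBH7 have been linked to proteins and mitochondria rather than to mRNA.

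The label of the libraries was checked against genes for proteins that hepatocytes secrete. Of the 10 listed, 8 had less than 1 TPM throughout, among them FGB, SERPINA1, ALB, APOB and APOA1, which were listed at 0 in the 3 tables. VTN and RBP4 were the exceptions with 23.3 and 11.0 TPM. The markers of blood, fibroblasts and endothelium were below 1 TPM as well, while all 5 housekeeping genes had at least 10 TPM. These values go against the liver origin in the label, so each level given here is that of the libraries labelled HepG2.

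The feature that unites the family was read from the annotated coding sequences, since it was not used to choose the genes. The iron is held by a histidine and an aspartate that are separated by 1 residue, and by a second histidine further along. The 27 bases around the first pair are printed from the MANE Select transcripts of GENCODE v44 (GRCh38), in the direction of transcription, with the histidine and aspartate codons in capitals.
FTO, codons 231 and 233, chr16:53826422-53826448, plus strand, exon 3: gtgagctggCATcatGATgaaaatctg
ALKBH5, codons 204 and 206, chr17:18184844-18184870, plus strand, exon 1: atcgtgtctCACgtgGACcccatccac
ALKBH1, codons 231 and 233, chr14:77675688-77675714, minus strand, exon 5: ctgggaatcCACgtaGACagatctgag
ALKBH2, codons 171 and 173, chr12:109088464-109088490, minus strand, exon 4: atcggggagCACcgaGATgatgaaaga
ALKBH3, codons 191 and 193, chr11:43901618-43901644, plus strand, exon 8: gtggactggCACagtGATgatgaaccc
ALKBH4, codons 169 and 171, chr7:102457781-102457807, minus strand, exon 3: attgaccccCACctgGACgacgcctgg
ALKBH7, codons 121 and 123, chr19:6374350-6374376, plus strand, exon 2: atcaagcccCACgtgGACagcatcaag
ALKBH8, codons 238 and 240, chr11:107549795-107549821, minus strand, exon 7: attcccgctCATattGATacacattcc

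In ALKBH6 the pair lies at codons 114 and 116, and its window (atcatgcccCACgagGACggaccactg) crosses an exon junction on the minus strand of chromosome 19. Each window was found as a histidine and aspartate pair that is followed by a later histidine and by a pair of arginines. In ALKBH7 the same search also matched codons 65 and 67, and the known site is the one printed. The RNA-seq tables hold no reads over these codons, so the windows describe the genes and not the libraries.

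All 9 genes had at least 1 TPM in each of the 3 libraries, a level reached by 33.8% of all gene rows. TPM, transcripts per 1000000, is scaled for gene length and to the same total in each library. At least 10 TPM in every library was reached by 6 of the 9, and by 20.7% of all gene rows. The means spanned about an order of magnitude, and ALKBH5 and ALKBH7 together made up 46.5% of the TPM summed over the family, against 2.69% for FTO.

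ALKBH5, the demethylase of m6A in the nucleus, had 55.0, 49.1 and 47.5 TPM in replicates 1, 2 and 3, a mean of 50.5 ± 3.95 TPM (SD, n = 3). It exceeded 78.4% of the 13753 genes whose mean reached 1 TPM. Its deposited row runs from 18183828 to 18209954 on the plus strand of chromosome 17. ALKBH7, a mitochondrial member, had 45.1, 47.2 and 49.9 TPM, a mean of 47.4 ± 2.39 TPM (SD, n = 3). The values of ALKBH5 and ALKBH7 overlapped. ALKBH5 was the higher gene in 2 of 3 libraries, with a log2 ratio of 0.09 ± 0.18 (SD, n = 3) on the log2(TPM + 1) scale, so the order of these genes is within the spread between libraries.

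The middle of the family was formed by the repair enzymes and ALKBH6. ALKBH2, which repairs methylated bases in double-stranded DNA, had 30.3, 30.9 and 32.7 TPM, a mean of 31.3 ± 1.22 TPM (SD, n = 3). ALKBH3, which prefers single strands, had 27.7, 22.9 and 25.7 TPM, a mean of 25.4 ± 2.38 TPM (SD, n = 3). ALKBH2 was above ALKBH3 in 3 of 3 libraries without overlap, by 0.29 ± 0.15 on the log2 scale. ALKBH6 had 25.2, 23.6 and 25.1 TPM, a mean of 24.6 ± 0.883 TPM (SD, n = 3), and could not be separated from ALKBH3, with a log2 ratio of ALKBH3 to ALKBH6 of 0.04 ± 0.09 (SD, n = 3) and overlapping values.

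ALKBH1, ALKBH4, FTO and ALKBH8 were the low members. ALKBH1 had 12.2, 11.3 and 11.7 TPM, a mean of 11.7 ± 0.494 TPM (SD, n = 3), and lay below ALKBH6 by 1.01 ± 0.03 on the log2 scale, the widest step between neighbours by TPM. ALKBH4 had 8.86, 9.20 and 9.09 TPM, a mean of 9.05 ± 0.178 TPM (SD, n = 3). The values of ALKBH1 and ALKBH4 did not overlap, ALKBH1 being higher by 0.34 ± 0.08 on the log2 scale.

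FTO had 5.84, 6.01 and 5.13 TPM in replicates 1, 2 and 3, a mean of 5.66 ± 0.471 TPM (SD, n = 3). It ranked 10054th by mean TPM and exceeded 26.9% of these genes. Its row covers 417979 bp on the plus strand of chromosome 16, from 53703963 to 54121941. ALKBH8, a tRNA methyltransferase fused to an AlkB domain, was the lowest member with 5.39, 4.71 and 4.56 TPM, a mean of 4.89 ± 0.446 TPM (SD, n = 3). FTO was above ALKBH8 within each of the 3 libraries, by 0.18 ± 0.11 on the log2 scale, although the lowest FTO value lay under the highest ALKBH8 value.

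**Figure D1:**
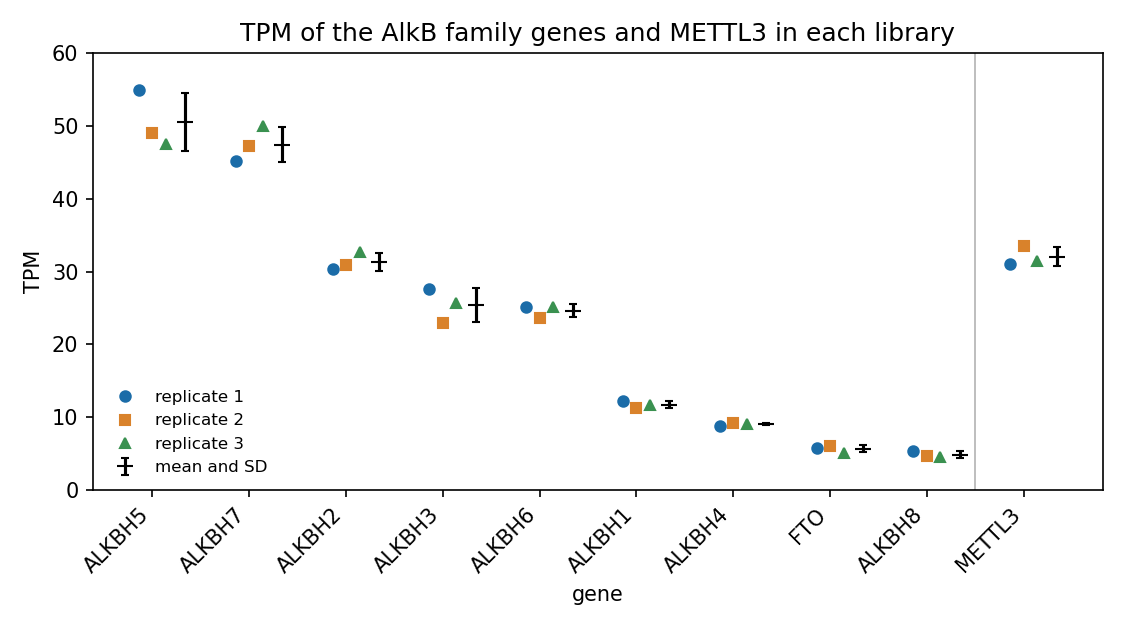
TPM (vertical axis, linear) of the 9 AlkB family genes in the order of their means, and of METTL3 at the right, in replicates 1 to 3 (points), with the mean and SD of 3 libraries (black bars). ALKBH5 and ALKBH7 overlap near 50 TPM, ALKBH3 and ALKBH6 overlap near 25 TPM, and FTO and ALKBH8 lie lowest, near 5 TPM.

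Neighbours in this order were compared within each library by an exact permutation test, two-sided, that flips the signs of the 3 within-library differences. It cannot give a p under 0.25, so no pair could pass 0.05. The pairs were formed by ranking the means of the same values, so a shared order is partly fixed by that choice. Of the 8 neighbouring pairs, 6 had the same order in all 3 libraries, each with an exact p of 0.25 (0.33 after Benjamini-Hochberg adjustment over 8 pairs). The pairs ALKBH5 with ALKBH7 and ALKBH3 with ALKBH6 had an exact p of 0.75 (0.75 adjusted). Among the 6 ordered pairs, FTO and ALKBH8 were the pair whose values overlapped across libraries.

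The demethylases were then set against METTL3, the catalytic writer of the mark. METTL3 had 31.1, 33.6 and 31.5 TPM. The FTO level was 8.94 ± 0.686 times lower than that of ALKBH5 and 5.68 ± 0.416 times lower than that of METTL3 within libraries (SD, n = 3, ratios of TPM). On the log2(TPM + 1) scale the ratio of FTO was -2.95 ± 0.10 to ALKBH5 and -2.31 ± 0.09 to METTL3. ALKBH5 was above METTL3 by 1.58 ± 0.165 times, a log2 ratio of 0.64 ± 0.14 (SD, n = 3). By coverage, the mean read depth over a gene that is described next, the log2 ratio of FTO with no pseudocount was -8.24 ± 0.06 to ALKBH5 and -7.47 ± 0.12 to METTL3, and that of ALKBH5 to METTL3 was 0.78 ± 0.17 (SD, n = 3), so the size of the FTO ratios rests on the value read. All 3 ratios of TPM had the same sign in 3 of 3 libraries without overlap, with an exact p of 0.25 each by the sign-flip permutation test (0.25 adjusted over 3 ratios), again the smallest p possible.

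The level of FTO depended on which deposited value was read. Beside TPM, the tables give FPKM, which is proportional to TPM within a library, and coverage, the mean read depth over a gene. Within a library the coverage per FPKM has a maximum, which was 13.3, 12.8 and 11.5 in replicates 1, 2 and 3, and 25.3% of genes whose mean reached 1 TPM were at 0.99 of it or higher. Of the 9 members, 3 were there. ALKBH3 and ALKBH5 were at 1.00 and ALKBH1 at 0.994. ALKBH4 was just under this limit at 0.9895, and ALKBH2 followed at 0.835, ALKBH7 at 0.624, ALKBH8 at 0.575 and ALKBH6 at 0.559 (means of 3 libraries).

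FTO was far below them. Its coverage was 1.09, 1.04 and 0.858 in replicates 1, 2 and 3, beside 2.76, 2.88 and 2.46 FPKM. For comparison, the coverage of ALKBH8, with a similar FPKM of 2.55, 2.25 and 2.18, was 19.3, 16.6 and 14.5. The coverage per FPKM of FTO was 0.0295 ± 0.00120 of the highest (SD, n = 3). It was 1 of 9 members under 0.05, where 1.75% of genes whose mean reached 1 TPM were found, and 94 of the 13753 genes had a lower value.

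Expressed on the TPM scale, the coverage of FTO gave 0.174, 0.169 and 0.156 TPM. The mean was 0.167 ± 0.00942 TPM (SD, n = 3), beside 5.66 TPM as deposited. Like every TPM by coverage here, this takes coverage as averaged over the length used for FPKM. That was not tested, so such a value is not a measured level of the gene. By coverage, FTO moved from eighth to last in the family, and its log2 ratio to ALKBH8, with no pseudocount, was -4.07 ± 0.07 (SD, n = 3). The other 8 members kept their order. The coverage of ALKBH5 gave the same 50.5 TPM as deposited, while the coverage of ALKBH7 gave 29.6 ± 1.51 TPM and that of ALKBH6 gave 13.8 ± 0.693 TPM (SD, n = 3). By coverage ALKBH5 was therefore above ALKBH7 in 3 of 3 libraries, by 0.77 ± 0.18 on the log2 scale with no pseudocount, and ALKBH3 was above ALKBH6 by 0.88 ± 0.10 (SD, n = 3). ALKBH2 and ALKBH3 could no longer be separated, with a log2 ratio of 0.04 ± 0.15 (SD, n = 3).

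**Figure D2:**
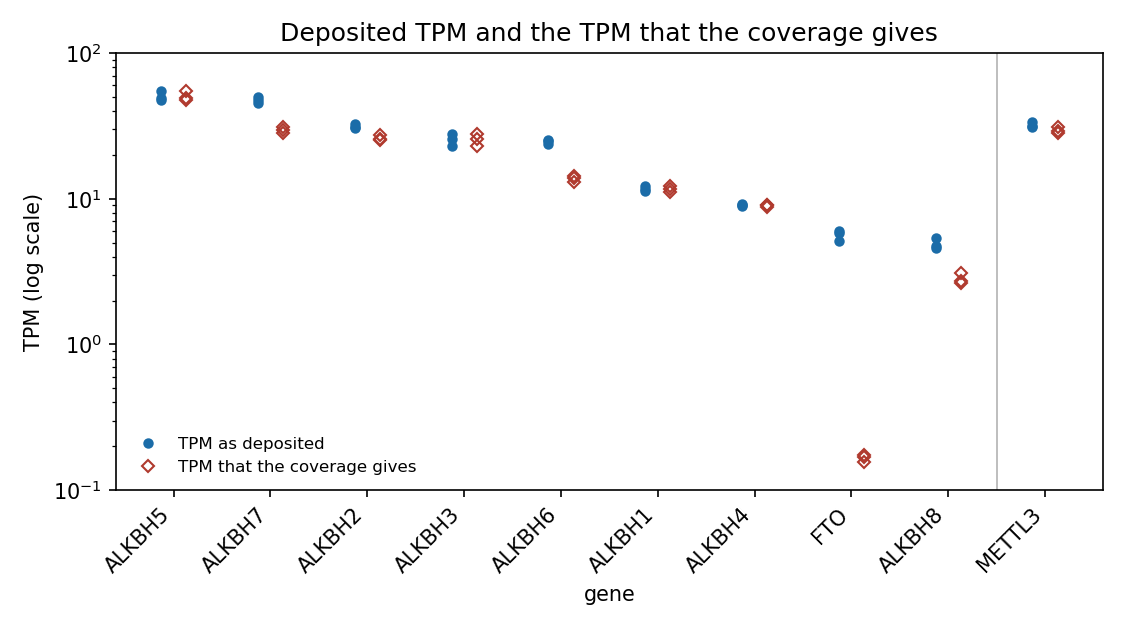
TPM (vertical axis, log scale) of the 9 AlkB family genes and METTL3 as deposited (filled circles) and as given by the coverage (open diamonds), 1 point per library. The marks coincide for ALKBH5, ALKBH3, ALKBH1 and ALKBH4, and for FTO the coverage gives 0.167 TPM on average against 5.66 TPM as deposited.

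The annotated transcripts and the length of the row of each member were set beside this ratio, and the ratio did not follow either of them throughout the family. RefSeq lists 16 curated transcripts of FTO, 9 of ALKBH8, 5 each of ALKBH2 and ALKBH6, and 1 each of ALKBH1, ALKBH3, ALKBH4, ALKBH5 and ALKBH7. ALKBH3 and ALKBH5, the members at the highest ratio, are also the ones with no further predicted transcript. ALKBH7, with 1 curated transcript and the shortest row at 2457 bp, was at 0.624. The row of ALKBH6 spans 5128 bp at a ratio of 0.559, while that of ALKBH3 spans 39444 bp at 1.00. In GENCODE v44, FTO has 22 transcripts of 459 to 11573 nt, and ALKBH5 has 3 of 1605 to 3159 nt. The counts are 19 for ALKBH6, 12 for ALKBH3, 8 for ALKBH2 and 7 for ALKBH8. ALKBH1 has 4, and ALKBH4 and ALKBH7 have 3 each. The MANE Select transcript of FTO has 9 exons and is the longest at 11573 nt, of which 1515 nt code for 505 residues. FTO is also the longest row of the family, 6.63 times as long as that of ALKBH8, which spans 63015 bp. Among genes whose mean reached 1 TPM, 135 of the 801 whose row spans at least 200 kb (16.9%) were under 0.05 of the highest ratio, against 105 of the shorter ones (0.811%). The span limit of 200 kb was chosen after the values had been seen. The transcripts counted for each gene, and the length over which its coverage was averaged, are not given in the sources used here, and their part in the FTO value was not tested.

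Variation between libraries was then compared with that of other genes. The range is the highest minus the lowest library on the log2(TPM + 1) scale, and a range above 0.5 was found for 4.17% of genes whose mean reached 1 TPM. Of the 9 members, 0 had such a range. ALKBH3 had the widest range of the family at 0.26, which exceeded 81.8% of genes, with the lowest value in replicate 2. ALKBH5, ALKBH8 and FTO followed at 0.21, 0.20 and 0.20. ALKBH4 was the steadiest at 0.05. The median range was 0.14 for the members and 0.15 for all 13753 genes, so the family varied about as much as other genes did. FTO, ALKBH5 and ALKBH8 were lowest in replicate 3, which also had the lowest coverage per FPKM, while ALKBH2 and ALKBH7 were highest there. The part of depth in these differences was not tested.

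**Figure D3:**
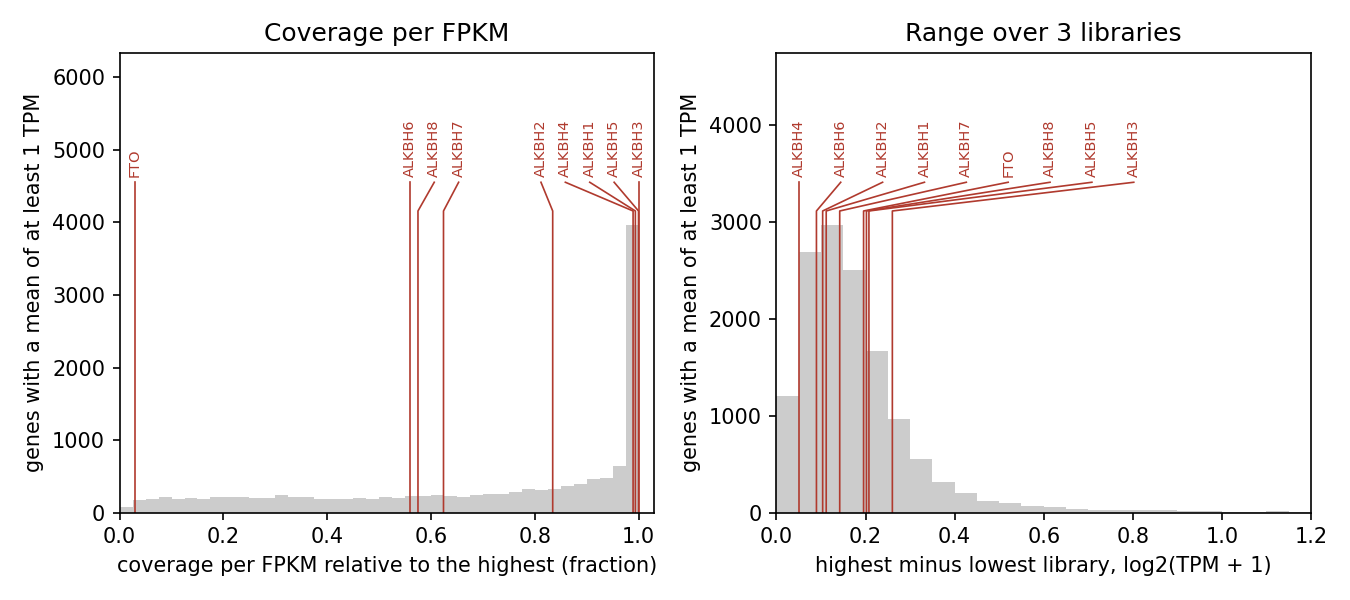
Left, coverage per FPKM relative to the highest of the library (mean of 3 libraries), and right, range of log2(TPM + 1) over 3 libraries, for genes whose mean reached 1 TPM (grey bars, number of genes; values beyond 1.2 on the right are not shown), with the 9 AlkB family genes marked by red lines. FTO stands alone at 0.0295 on the left, and on the right all members lie at or under 0.26.

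The genes beside the members were examined because several rows lie close together or overlap. For 5 of the 9 members, the row of a gene on the other strand begins within 1000 bp upstream, so that both genes point away from each other. This arrangement was found for 19.5% of genes whose mean reached 1 TPM. The distance was within 100 bp for 4 of the 9 members, and for 8.41% of all genes whose mean reached 1 TPM. FTO and RPGRIP1L, a gene of the primary cilium, start 25 bp apart, and RPGRIP1L had 8.33, 6.72 and 7.21 TPM, above FTO in every library without overlap. By coverage RPGRIP1L had 1.38 ± 0.0954 TPM (SD, n = 3), against 0.167 TPM for FTO. ALKBH4 and LRWD1, which encodes a subunit that stabilises the origin recognition complex, start 20 bp apart, with 27.8 ± 2.09 TPM (SD, n = 3) for LRWD1. ALKBH1 and SLIRP, a stabiliser of mitochondrial mRNA, start 33 bp apart. SLIRP had 342 ± 32.8 TPM (SD, n = 3), far above ALKBH1 on the same scale. ALKBH6 and LOC101927572 start 256 bp apart, with 7.37 ± 0.751 TPM (SD, n = 3) for the latter. ALKBH3 and LOC105376644 start 94 bp apart, and the latter was listed at 0, 0 and 0.0243 TPM. UNG, the uracil glycosylase of DNA repair, starts 3963 bp from the ALKBH2 row, beyond the limit, and had 85.2 ± 5.06 TPM (SD, n = 3). Of the other nearest rows, MYO15A beside ALKBH5 was at 0.0205, 0.0179 and 0 TPM, and LINC02169 beside FTO and ELMOD1 beside ALKBH8 were listed at 0 in all 3 libraries.

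The bases between the rows are printed for the closest pairs to show how short these gaps are, from RefSeq promoter windows of GRCh38.p14 in the direction of the AlkB family gene. In the FTO gap 16 of 24 bases are G or C, and in the ALKBH4 gap 18 of 19.
FTO and RPGRIP1L, chr16:53703939-53703962, plus strand: cctgtttgctcgcggggtagcgga
ALKBH4 and LRWD1, chr7:102464864-102464882, minus strand: gcggcccccacggccgcgc

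Rows that overlap a member could exchange reads with it, since the strand setting is not given in the sources used here. The row of ORAI2, a calcium channel subunit, overlaps that of ALKBH4 on the other strand over 606 bp and had 7.05 ± 0.439 TPM (SD, n = 3), close to ALKBH4. The other overlapping rows were low. FTO-IT1, an RNA within the FTO row, had 0.645, 0.455 and 0.436 TPM, and LOC105371271, also within it, had 0, 0.245 and 0.0840 TPM. ALKBH3-AS1 had 0.121 ± 0.0281 TPM and SEC14L1P1 had 0.799 ± 0.153 TPM (SD, n = 3), both within or across the ALKBH3 row. PSPN overlaps the end of ALKBH7 over 103 bp and had 0, 0.451 and 0.205 TPM. The row of ALKBH5 overlaps no other row, and neither do those of ALKBH1, ALKBH2, ALKBH6 and ALKBH8.

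The family was placed beside the genes that write and read m6A. All 13 listed writers and their cofactors, and all 8 listed readers, had at least 1 TPM in every library, against 33.8% of all gene rows. The FTO mean was below all 13 writers, and 11 of them were above FTO in every library without overlap. METTL14, the partner of METTL3, was the lowest writer by mean TPM with 6.41, 5.34 and 5.65 TPM. These values overlapped with those of FTO, as did those of ZCCHC4 with 7.30, 7.03 and 5.74 TPM. By coverage ZCCHC4 was the lowest writer with 1.33 ± 0.0805 TPM, and METTL14 had 4.87 ± 0.0930 TPM (SD, n = 3). Both were above the 0.167 TPM of FTO. ALKBH5 had a higher mean than 11 of the 13 writers, and 10 of them were below it in every library without overlap. METTL5 had 47.3, 48.1 and 50.9 TPM, which overlapped with ALKBH5. The exceptions by mean were WTAP and TRMT112. WTAP, the scaffold of the complex, had 55.8 ± 3.31 TPM (SD, n = 3) and also overlapped with ALKBH5. TRMT112, an activator of several methyltransferases, had 263 ± 35.7 TPM (SD, n = 3), above ALKBH5 in every library. By coverage WTAP had 8.21 ± 0.426 TPM (SD, n = 3), below the 50.5 TPM of ALKBH5, and TRMT112 was then the 1 writer above ALKBH5. The readers ranged from 14.01 TPM for IGF2BP2 to 66.6 TPM for YTHDF1. All 8 were above FTO in every library, and 5 of the 8 were below ALKBH5 in every library. By coverage, 6 of the 8 readers had a mean below ALKBH5.

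**Figure D4:**
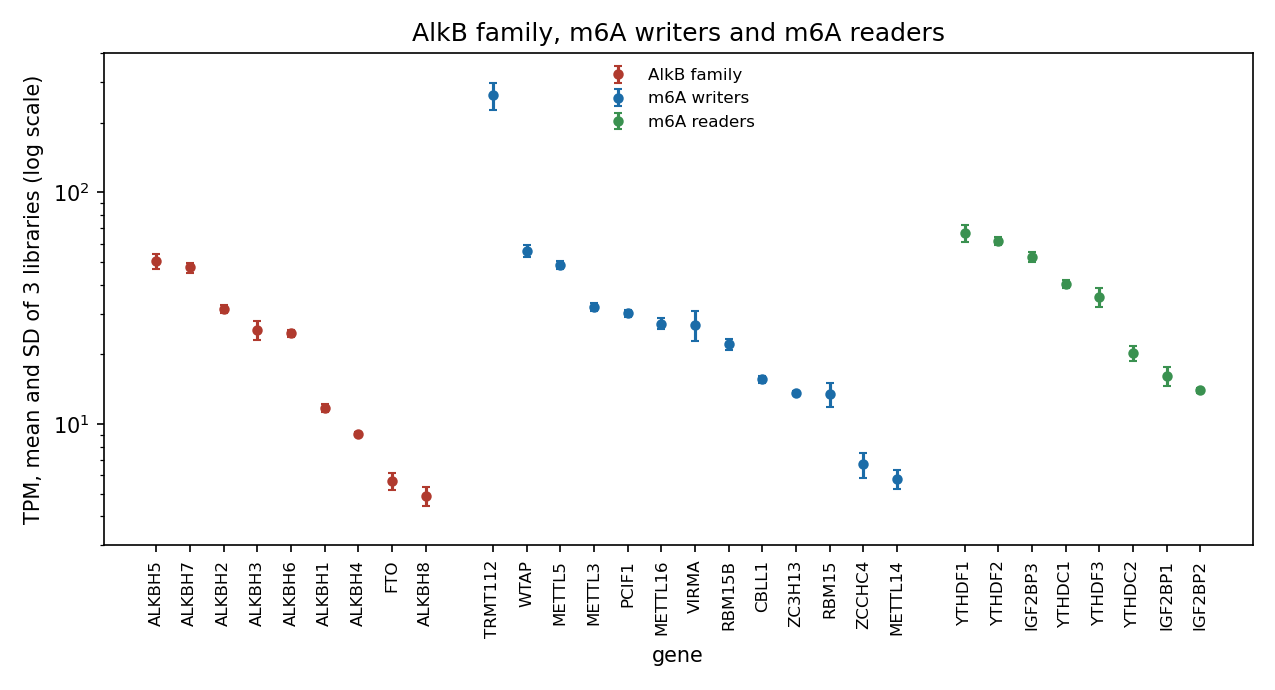
Mean TPM and SD of 3 libraries (vertical axis, log scale) for the AlkB family (red), m6A writers and cofactors (blue) and m6A readers (green), each group ordered by mean. FTO and ALKBH8 lie with METTL14 and ZCCHC4 at the bottom of the plot, and ALKBH5 with WTAP and the upper readers.

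Genes known to work with single members were also detected. ASCC3, the helicase that unwinds DNA for ALKBH3, had 18.5 ± 1.33 TPM (SD, n = 3). ASCC2 and ASCC1 of the same complex had 29.99 ± 2.28 and 37.5 ± 2.09 TPM (SD, n = 3). As deposited, these levels were near the 25.4 TPM of ALKBH3. By coverage ASCC3, ASCC2 and ASCC1 had 9.19 ± 0.691, 10.9 ± 0.206 and 17.3 ± 0.801 TPM (SD, n = 3), below the 25.4 TPM of ALKBH3. All 6 other genes listed for repair of alkylated bases had at least 1 TPM in every library, against 33.8% of all gene rows. MGMT, which reverses O6-methylguanine in DNA directly, was lowest with 4.52, 4.08 and 3.52 TPM, below ALKBH2 and ALKBH3 in every library. Its coverage per FPKM was also low, at 0.0610 of the highest, which gave 0.244 ± 0.00640 TPM (SD, n = 3). APEX1, the nuclease of base excision repair, was highest with 247 ± 10.7 TPM (SD, n = 3).

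ALKBH8 acts at the end of the wobble uridine pathway of tRNA, after the Elongator complex. All 9 listed genes of that pathway had at least 1 TPM in every library, against 33.8% of all gene rows. They ranged from 7.38 ± 0.571 TPM for the Elongator subunit ELP4 to 263 TPM for TRMT112, the partner of the ALKBH8 methyltransferase domain. Each of them had a mean above the 4.89 TPM of ALKBH8. NSUN3, which makes the methylcytosine in mitochondrial tRNA that ALKBH1 oxidises further, had 4.05 ± 0.199 TPM (SD, n = 3), below ALKBH1.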

How the data were processed

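The authors sequenced polyA RNA as 150 bp paired-end reads, filtered them with FastQC 0.11.8 and Trim Galore 0.6.2 and mapped them to GRCh38 with STAR 2.6.1a. StringTie is named in the submitters' processing notes without a version or role. The annotation and strand setting are not given in the sources used here. The deposited TPM values are scaled by the authors to 1000000 per library. The deposited FPKM values are scaled for length and library size. The deposited coverage signal is a mean read depth that is not scaled for library size. None of these is a count, so the number of reads is not given and the SD over 3 libraries is the error used.

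Rows of the same gene, strand and coordinates were joined. Coverage was put on the TPM scale by dividing it by the highest coverage per FPKM of the library, over rows above 1 FPKM, and multiplying by the TPM per FPKM. This takes the length behind coverage to be that behind FPKM, which was not tested. Coding windows were found by translating the transcripts, with a later histidine 40 to 94 codons after the pair. The members, gene lists and tests were chosen with earlier results of these data known. Named were the members, METTL3, overlapping, nearest and head-to-head rows, and list members at the extremes. Other list members were named after their values had been seen. A gene of the 2-oxoglutarate list is not reported here. At most 7 rows had equal TPM in a pair of libraries. The range calculation was tested on simulated data. Alternatives were other scalings, pseudocounts and limits, FPKM, coverage and leaving out each replicate. Python 3.11.15, numpy 2.4.6, pandas 2.3.3, Biopython 1.88 and matplotlib 3.10.9 were used.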

Additional observations from a re-analysis of the deposited data

How the results depend on the processing

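No paired analysis was possible because only 1 condition was sequenced, and each ratio was already taken within a library. With each replicate left out, the mean ranged from 5.48 to 5.93 TPM for FTO and from 48.3 to 52.0 TPM for ALKBH5, and the log2 ratio of FTO stayed between -3.01 and -2.91 to ALKBH5 and between -2.35 and -2.27 to METTL3. Without replicate 1, the log2 ratio of ALKBH5 to ALKBH7 reversed to -0.0089 (other sets up to 0.17) and that of ALKBH3 to ALKBH6 to -0.0034 (up to 0.082), both of which overlapped in the full data. By coverage with a pseudocount of 1, the ratio of FTO to ALKBH8 reversed to -3.15. The other neighbouring pairs and the ratios of FTO, ALKBH5 and METTL3 kept their direction with a pseudocount of 0.1, FPKM, coverage and each replicate left out.

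Mitochondrially encoded genes took 19.9% to 20.3% of all TPM, most of it the tRNA gene TRNC. Scaling without them raised FTO to 7.10 TPM and ALKBH5 to 63.3 TPM, and setting TRNC to the FPKM of its coverage raised them to 6.82 and 60.8 TPM. Members with at least 10 TPM in every library numbered 6 of 9, against 20.7% of all gene rows. The percentile of FTO was 74.4 with no minimum, 46.3 with a minimum mean of 0.1 TPM and 0.873 by coverage. That of ALKBH5 was 92.4, 84.1 and 84.4 under the same settings. Genes with a range above 0.5 numbered 573 of 13753 (4.17%), and 956 of the same genes (6.95%) with a pseudocount of 0.1. They numbered 119 of 8419 (1.41%) with a minimum mean of 10 TPM and 1109 of 39320 (2.82%) with no minimum. With a replicate left out there were 306 to 318, where fewer libraries can only lower a range. Under the pseudocount of 0.1, median-of-ratios scaling and each replicate left out, 0 members were above 0.5. No test over 3 libraries reached a p below 0.25, the smallest possible. The number of reads behind the low values of FTO is not given. Separately, FTO read 33.9 times higher by FPKM than by coverage.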

Other observations

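Genes around the cofactor of the family were detected as well. OGDH, an enzyme of the citric acid cycle that uses 2-oxoglutarate, the substrate that every AlkB enzyme consumes, had 173 ± 5.002 TPM (SD, n = 3). The isocitrate dehydrogenases IDH1 and IDH2 had 89.7 ± 3.60 and 19.6 ± 1.35 TPM (SD, n = 3). By coverage OGDH had 47.2 ± 1.32 TPM, below IDH1 with 77.2 ± 3.10 TPM (SD, n = 3). IDH2 then had 18.4 ± 0.644 TPM (SD, n = 3). Of 16 other dioxygenases of the same cofactor, 15 had at least 1 TPM in every library, a level reached by 33.8% of all gene rows. TET1, which oxidises methylcytosine in DNA, was the exception by TPM with 0.0611, 0.0591 and 0.0714 TPM. TET2 had 3.75 ± 0.315 and TET3 had 13.98 ± 1.12 TPM (SD, n = 3). By coverage more of the 16 were below 1 TPM, among them TET2 with 0.606 ± 0.0499 TPM (SD, n = 3). TET3 then had 10.1 ± 0.847 TPM (SD, n = 3). PLOD1, a lysyl hydroxylase of collagen, was the highest with 90.04 ± 0.488 TPM (SD, n = 3).

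The 3 genes whose values were most like those of FTO over the 3 libraries were PLA2G12A, TBC1D31 and ARL15, which differed from FTO by at most 0.02, 0.04 and 0.05 on the log2(TPM + 1) scale in any library. For ALKBH5 they were FGD5-AS1, ASPM and CDC34, with at most 0.01, 0.02 and 0.02. Another 3 libraries could give other genes, since 68 genes lay within 0.1 of FTO and 108 within 0.1 of ALKBH5.

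The low coverage of FTO can be written as a length. If coverage was averaged over the whole 417979 bp row, its ratio to FPKM is that of a transcript of 12328 nt, beside 11573 nt for the MANE Select transcript. If it was averaged over the 21379 nt of all GENCODE v44 exons, the length is 631 nt. The annotated transcripts of FTO run from 459 to 11573 nt. For ALKBH5 the first assumption gives 26127 nt, the length of its row. The second gives 3601 nt, beside a MANE Select transcript of 3159 nt. The first gives 35418 nt for ALKBH1 and 39444 nt for ALKBH3. The second gives 2830 and 2380 nt, beside MANE Select transcripts of 2597 and 1544 nt. On both assumptions the lengths of ALKBH1, ALKBH3 and ALKBH5 are above their longest annotated transcripts of 2597, 1557 and 3159 nt. The first assumption gives 4544 nt for ALKBH2, 8554 nt for ALKBH4, 2868 nt for ALKBH6 and 36230 nt for ALKBH8. In the same order, the second gives 1911, 2275, 2401 and 2588 nt. Their MANE Select transcripts have 1180, 2092, 951 and 4067 nt. For ALKBH7 the lengths are 1534 and 682 nt, beside 970 nt. Which length was used was not tested.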
